A study of Mus musculus with 24 samples.

Results

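The libraries described here are the 6 of 24 small RNA libraries of murine subcutaneous fat in which miR-451a, a miRNA of red blood cells, reached 2400 CPM or more, where CPM is a count scaled to a library total of 1000000 reads. They were chosen on that value alone and are set against the other 18, with an adjustment for whether miR-150-5p, a lymphocyte miRNA, reached 2000 CPM. The study compared sedentary and trained female mice on chow, wild type or with a genotype called kinase dead, with 6 libraries in each of the 4 groups. The sources used here do not name the inactive kinase or the cells in which it is inactive. Training was treadmill running for 1 hour on 5 days per week over 6.5 weeks at 16 m/min, with free access to a running wheel. The split on miR-451a is measured and is not a condition of the study, and nothing in the labels ties each library to an animal of its own. P-values therefore speak only of how values vary together among these libraries, and not of animals or of an effect of a treatment.

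Mature red cells have no nucleus but carry a characteristic set of miRNAs from their precursors. miR-451a and miR-144 are cut from neighbouring hairpins that are transcribed together under the erythroid factor GATA1, and miR-451a is matured by Argonaute 2 without Dicer. miR-486 lies in the gene of ankyrin 1, a protein of the red cell skeleton, and is made both in the erythroid line and in striated muscle. Bulk RNA of a tissue cannot separate fewer cells of a type from less RNA per cell, and the source of the red cell miRNAs in this fat was not tested.

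The sequences of the cluster are shown because its hairpins differ in layout and its mature miRNAs in seed, the bases 2 to 8 that pair with targets. RefSeq sequences on GRCm38 place Mir144 at chr11:78073005-78073070 and Mir451a at chr11:78073170-78073241, both on the plus strand, in intergenic sequence and 99 bases apart. Each hairpin is written 5′ to 3′ with the mature miRNA in capitals. The mature sequences occupy positions 6 to 28 (5p arm) and 43 to 62 (3p arm) of the 66 bases of Mir144, and positions 17 to 38 of the 72 bases of Mir451a.
Mir144: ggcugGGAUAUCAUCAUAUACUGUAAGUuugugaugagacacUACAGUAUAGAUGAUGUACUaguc
Mir451a: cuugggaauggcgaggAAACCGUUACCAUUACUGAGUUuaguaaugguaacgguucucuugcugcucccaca

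In the mature miRNAs the seed is in capitals. None of these 3 seeds was shared with another mature mouse miRNA of the RefSeq table.
miR-451a: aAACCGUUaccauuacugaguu
miR-144-3p: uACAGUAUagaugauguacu
miR-144-5p: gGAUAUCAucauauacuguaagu

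For contrast, miRNAs that red cells hold in quantity but that many other cells also make are shown with theirs. miR-25-3p, miR-92a-3p and miR-363-3p share the seed AUUGCAC, and miR-16-5p, miR-15a-5p and miR-15b-5p share AGCAGCA.
miR-25-3p: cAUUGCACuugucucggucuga
miR-92a-3p: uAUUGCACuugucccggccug
miR-363-3p: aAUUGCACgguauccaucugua
miR-16-5p: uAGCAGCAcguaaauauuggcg
miR-15a-5p: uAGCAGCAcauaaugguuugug
miR-15b-5p: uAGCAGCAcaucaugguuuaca

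The 6 libraries rich in miR-451a came from all 4 groups. Sedentary wild type gave libraries 1, with 7556 CPM of miR-451a, and 6, with 4094 CPM. Trained kinase dead gave libraries 5, with 3603 CPM, and 3, with 3217 CPM. Trained wild type gave library 6, with 3076 CPM, and sedentary kinase dead gave library 2, with 2889 CPM. Sedentary wild type 1 stood well above the other 5. The other 18 libraries ran from 896 to 1859 CPM with a median of 1642 CPM, so the values just inside and just outside the threshold were 2889 and 1859 CPM. These values chose the libraries and are given as a description. The spread of the 6 over the 4 groups (2, 1, 1 and 2) gave p = 1 in a two-sided Fisher's exact test. At or above 2000 CPM of miR-150-5p were 2 of the 6 rich libraries, sedentary wild type 1 and trained kinase dead 3, and 5 of the other 18.

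Library totals were 4.03 to 23.6 M reads (median 11.7 M) in the rich libraries and 1.60 to 15.9 M (median 5.42 M) in the others. The mean log2 total was 0.97 higher in the rich libraries (two-sided exact permutation test over 134596 splits, n = 6 and 18, p = 0.0469). The library with the most miR-451a, sedentary wild type 1, was the smallest of the 6. The marker miRNAs of fat cells in a fixed list (among them miR-148a, miR-378a and miR-193b) summed to 53916 to 65902 CPM in the rich libraries and 49181 to 65214 CPM in the others. Of 2045 loci in the table, 684 passed the filter on low counts, and the 1361 below it held 0.0142% of the reads.

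miR-144, the partner of miR-451a in its transcript, was high in the same libraries. Its p-value is not given, since it shares the transcript that chose them. miR-144-3p had 349.6 to 1160 CPM in the rich libraries (median 634.7) and 105.4 to 396.2 CPM in the others (median 242.3). The groups overlapped: trained wild type 6, a rich library, lay below 4 of the others. miR-144-5p had 223.04 to 507.2 CPM in the rich libraries (median 240.7) and 71.1 to 183.2 CPM in the others (median 109), without overlap. Its scarcest count of all was 123 reads in sedentary wild type 4, which is 76.8 CPM with a 95% Wilson interval of 64.4 to 91.6 CPM, covering counting error only. The fitted log2 difference, rich minus other, was 1.28 (SE 0.21) for miR-144-3p and 1.24 (SE 0.22) for miR-144-5p, close to the 1.35 of miR-451a itself. miR-451b, annotated on the strand opposite Mir451a, held 119 reads in all against 483095 for miR-451a and did not pass the filter.

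miR-486 was the one miRNA outside that cluster with an adjusted p under 0.05 in the fit on all 24 libraries, and it was higher in the rich ones. Its hairpin lies at chr8:23142555-23142682 on the plus strand, in an intron of Ank1, which encodes ankyrin 1. Mir3107 is annotated on the opposite strand at chr8:23142573-23142662, and its arms held exactly the same reads as those of miR-486. miR-486-5p had 1299 CPM in sedentary wild type 1 and 848.3 CPM in trained wild type 6. The other 4 rich libraries had 669.5 CPM (trained kinase dead 3), 608.8 CPM (trained kinase dead 5), 563.6 CPM (sedentary wild type 6) and 520.9 CPM (sedentary kinase dead 2). The other 18 libraries ran from 169 to 595.8 CPM with a median of 259.9 CPM. All 6 rich libraries thus exceeded 17 of the other 18, and only trained wild type 4 reached into their range. The difference was a log2 of 1.24 (SE 0.22, 95% interval 0.79 to 1.70) for miR-486-5p, or 2.36-fold, with a Benjamini-Hochberg adjusted p of 0.000614 in edgeR's quasi-likelihood test. miR-486-3p, the other arm, had 603.5 to 1595 CPM in the rich libraries (median 722) and 187.6 to 667.8 CPM in the others (median 311). Its log2 difference was 1.27 (SE 0.22), with the same adjusted p of 0.000614 in that test.

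**Figure D1:**
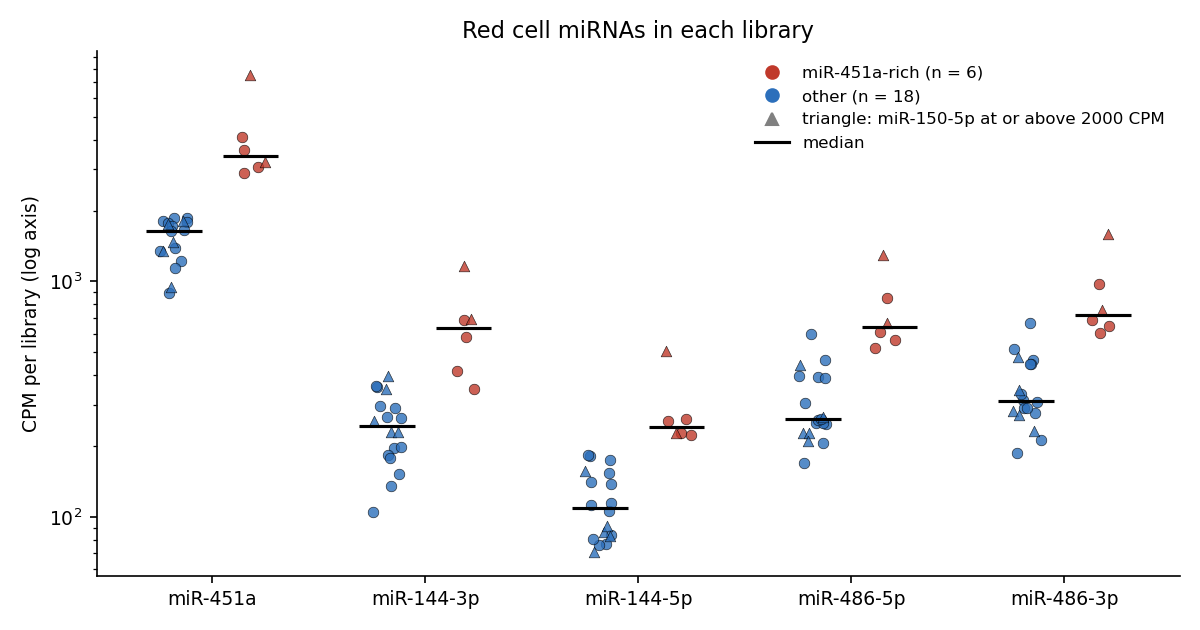
CPM of miR-451a, both arms of miR-144 and both arms of miR-486 in each library on a log axis, for the 6 rich libraries (red) and the 18 others (blue). Triangles are libraries at or above 2000 CPM of miR-150-5p and bars are medians. miR-144-5p separates the groups, with 223.04 CPM as the lowest rich and 183.2 CPM as the highest other value, while miR-144-3p and both arms of miR-486 overlap in a few libraries.

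The 4 red cell species kept a similar proportion to miR-451a in both groups. For each 100 reads of miR-451a the rich libraries held 13.8 to 27.6 reads of miR-486-5p and the others 13.9 to 32.1. For miR-486-3p the ranges were 15.8 to 31.8 and 16.4 to 36.0 reads. For miR-144-3p they were 11.4 to 23.7 and 9.75 to 24.1 reads, and for miR-144-5p 6.22 to 8.46 and 4.26 to 11.2 reads. The ranges of the rich libraries lay almost wholly inside those of the others for all 4. Taken as a continuous measure over all 24 libraries, each doubling of miR-451a went with a log2 rise of 0.90 (SE 0.11) in miR-486-5p, 0.94 (SE 0.10) in miR-486-3p, 0.90 (SE 0.11) in miR-144-3p and 0.88 (SE 0.10) in miR-144-5p. Without miR-451a, these 4 species made up 0.194 to 0.456% of the reads of a rich library and 0.0586 to 0.163% of another, a description that includes miR-144 from the transcript of miR-451a.

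Across the remaining miRNAs almost no difference passed the test. Of 681 tested loci outside the cluster, 4 passed an adjusted p of 0.05 (0.587%), all of them higher and all of them the miR-486 arms and the opposite miR-3107 arms. None was lower in edgeR's quasi-likelihood test, in which 2 (0.294%) were lower at an unadjusted p under 0.05, and none in DESeq2, in which 3 (0.441%) were. At an unadjusted p under 0.05 in either direction were 9 of the 681 (1.32%), among them the 4 that passed. A share below the threshold of 0.05 itself can mean that the test was conservative here, which was not tested. The log2 difference was above 0 for 309 of the 681 (45.4%). No locus outside the cluster had rich and other libraries without overlap (0 of 681). For miRNAs that were not scarce the 95% intervals were mostly narrow. They are not adjusted for the number of loci tested, so a small difference can still fail the test. Of the distinct miRNAs, 334 averaged 10 CPM or more. Their 95% intervals had a median half-width of 0.29 on the log2 scale, and for 318 of them both limits lay between -1 and 1. In simulated counts split into rich and other libraries, 92 of 95 loci changed 2-fold were called, and 61 of 92 changed 1.5-fold. Of 471 left unchanged, 6 were called (1.27%). The simulated loci were changed together, and the Benjamini-Hochberg adjustment is less strict when many loci change than when 4 of 681 pass. The simulated shares therefore do not give the power of the test on the real counts.

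**Figure D2:**
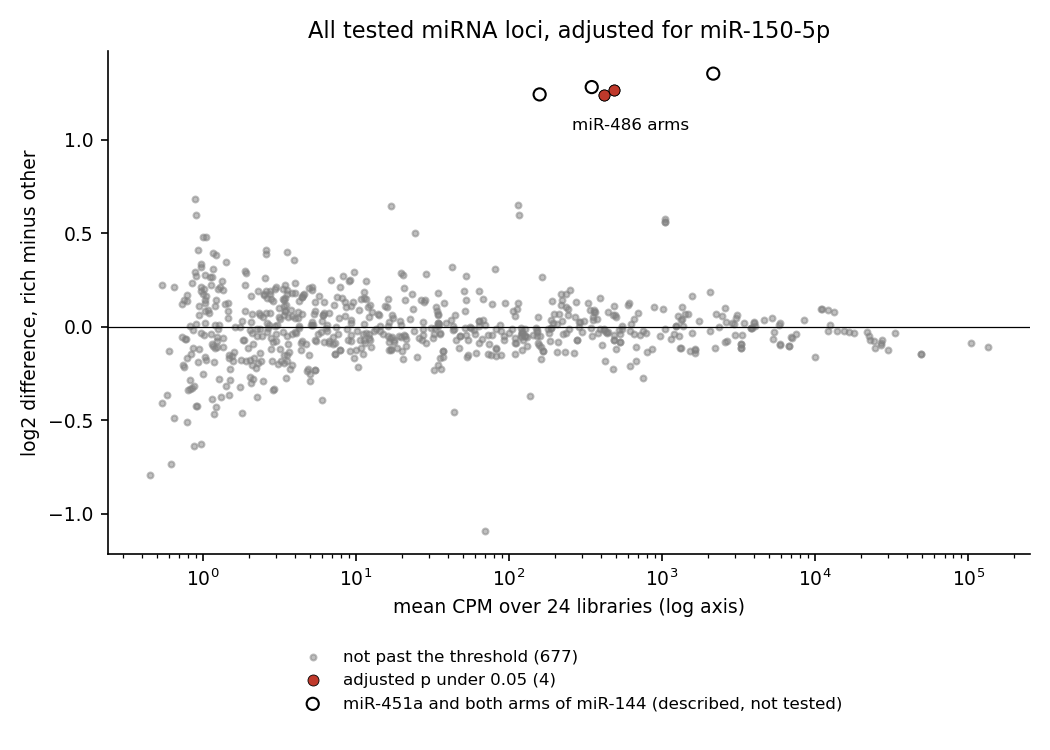
Log2 difference (rich minus other, adjusted for miR-150-5p) against mean CPM over 24 libraries on a log axis, for each tested miRNA locus. The 4 loci with an adjusted p under 0.05 (red, drawn in coinciding pairs) are the miR-486 and miR-3107 arms. They lie beside miR-451a and both arms of miR-144 (open circles, described without a p-value).

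The most abundant miRNAs of the fat differed by less than a log2 of 0.2 between the groups, and none of the 6 passed the test. miR-143-3p, a smooth muscle and stromal miRNA, had a median of 129262 CPM in the rich libraries and a log2 difference of -0.11 (SE 0.09). miR-21a-5p, widely made and raised in many growing tissues, had -0.09 (SE 0.13). miR-126a-3p, a miRNA of endothelium and platelets, had -0.15 (SE 0.13), with 35624 to 52340 CPM in the rich libraries. miR-148a-3p, abundant in adipocytes, had -0.03 (SE 0.11), miR-30a-5p -0.13 (SE 0.10) and miR-99a-5p -0.07 (SE 0.11). The 2 loci that were lower at an unadjusted p under 0.05, miR-467a-2-3p at -0.63 (SE 0.23) and miR-466c-2-3p at -0.74 (SE 0.33), are later copies of mature sequences with several loci, and they did not pass. Of the other lower miRNAs, with only the first locus of a shared sequence considered, the 4 with the smallest p did not pass either: miR-9769-3p at -0.64 (SE 0.32), miR-335-5p at -0.45 (SE 0.26), miR-29b-1-5p at -0.28 (SE 0.16) and miR-5120 at -0.79 (SE 0.49). Of these 4 only miR-335-5p was above a few CPM, with medians of 36.7 CPM in rich and 42.9 CPM in other libraries.

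Red cells also hold large amounts of miR-16, miR-25, miR-92a, miR-93 and related miRNAs that most other cells make too. Of 27 distinct miRNAs of this kind that were tested, none passed the test. The log2 difference was above 0 for 22 of them (81.5%), beside 45.5% of all 567 distinct miRNAs outside the cluster, and the median was 0.06 beside -0.01. The upper limit of the interval stayed under a log2 difference of 1 for all 27. miR-92a-3p, the most abundant, had 2396 to 6905 CPM in the rich libraries and a log2 difference of 0.02 (SE 0.16). miR-16-5p had 901 to 2159 CPM in the rich libraries (median 1703) and 857 to 2262 CPM in the others (median 1360), with a difference of 0.07 (SE 0.14). miR-25-3p had 1818 to 3164 CPM in the rich libraries (median 2141) and 1361 to 2927 CPM in the others (median 1739). Its log2 difference of 0.19 (SE 0.08, 95% interval 0.02 to 0.35) had an unadjusted p of 0.0293 and an adjusted p of 0.996 in edgeR's quasi-likelihood test, and it and miR-16-5p were named after their values were seen. The difference of miR-25-3p was 0.07 without trained wild type 6. That fall was not particular to it. Of the fits with a library left out, this one also gave the lowest values of miR-143-3p (-0.20), miR-30a-5p (-0.22) and miR-192-5p (-0.16).

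**Figure D3:**
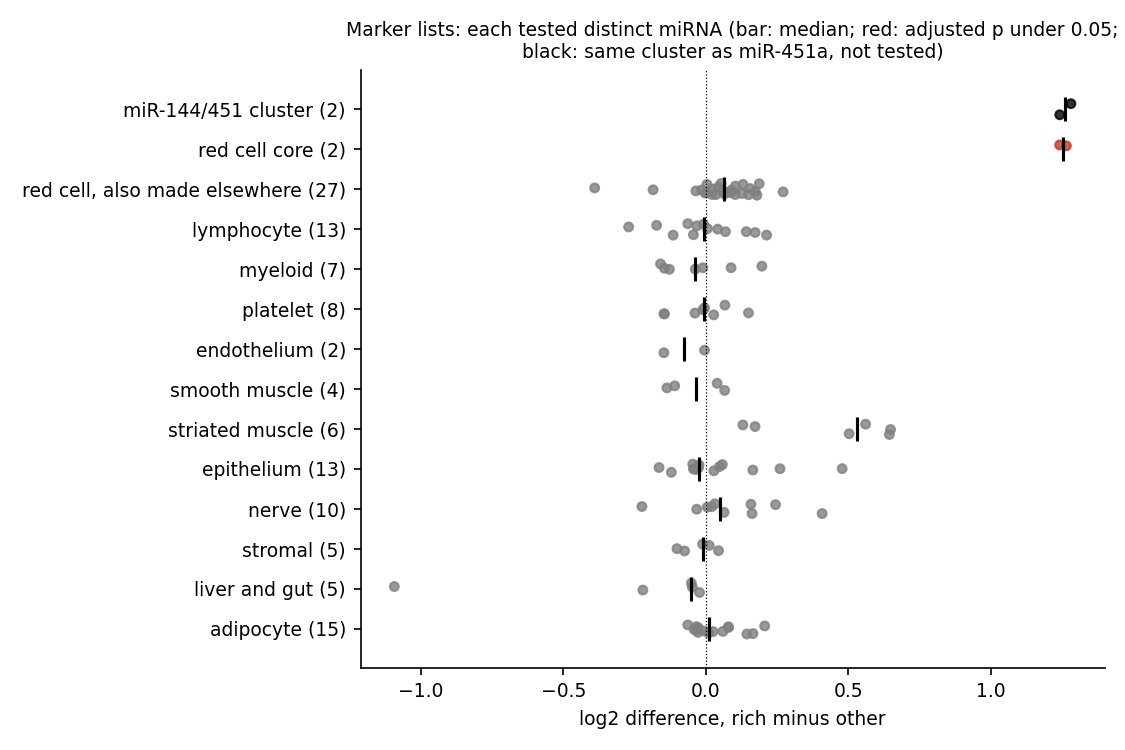
Log2 difference (rich minus other) of each tested distinct miRNA in lists of cell type markers, with the number tested in brackets and the list median as a bar. The red cell core (red, adjusted p under 0.05) and the cluster of miR-451a (black, described without a p-value) lie above 1.2. The shared red cell miRNAs lie near 0, and the 6 striated muscle miRNAs lie between 0.13 and 0.65 without passing the test.

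No marker of the other blood cells passed the test with the miR-150-5p split in the fit. The share to set beside each list here and below is the 45.5% of all 567 distinct miRNAs that were above 0. Of 13 lymphocyte miRNAs 6 were above 0 (median -0.01). This list holds miR-150, whose level is a term of the fit, and without it 6 of 11 were above 0. Above 0 were also, of 7 myeloid miRNAs 2 (median -0.04) and of 8 platelet miRNAs 3 (median -0.01). miR-142a-5p, made throughout the blood lineage, had a log2 difference of -0.04 (SE 0.19), and miR-146a-5p, an inflammatory miRNA, -0.13 (SE 0.18). The summed lymphocyte list ran from 2774 to 26132 CPM in rich libraries and from 2694 to 27896 CPM in the others, so lymphocyte-rich and lymphocyte-poor samples were present on both sides. The endothelial list had 0 of 2 above 0 (median -0.08), the smooth muscle list 2 of 4 (median -0.03), and the stromal list 2 of 5 (median -0.01). miR-199a-3p, which leads the stromal list, had -0.10 (SE 0.08).

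Adipocyte, epithelial, nerve and liver markers also had no member past the test. Of 15 adipocyte miRNAs 8 were above 0 (median 0.01). Of 13 epithelial miRNAs 6 were above 0, and miR-200a-3p, the most abundant of them, had a log2 difference of -0.16 (SE 0.11). Of 10 nerve miRNAs 8 were above 0 (median 0.05), and miR-338-3p, which leads that list, had -0.03 (SE 0.34). All 5 liver and gut miRNAs were below 0 (median -0.05). miR-192-5p, the most abundant of these, had -0.02 (SE 0.10). miR-122-5p, the hepatocyte miRNA, had 8.18 to 82.4 CPM in the rich libraries and 4.04 to 433.6 CPM in the others. Its difference of -1.09 (SE 0.81), named after its values were seen, did not pass. With libraries left out it ran from -1.56 (without sedentary kinase dead 2) to -0.43 (without trained wild type 2).

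Striated muscle, which also makes miR-486, has its own marker miRNAs, and these varied widely between libraries. All 6 tested distinct members (miR-1, miR-133a, miR-133b, miR-206 and miR-499 species) were above 0, beside 45.5% of all 567 distinct miRNAs outside the cluster. Their log2 differences ran from 0.13 to 0.65 with a median of 0.53, and none passed the test. miR-1b-5p, read together with miR-1a-3p, led the list with 0.56 (SE 0.43). With libraries left out it ran from 0.17 (without sedentary kinase dead 2) to 0.76 (without sedentary wild type 2). At a threshold of 3000 CPM, which sedentary kinase dead 2 does not reach, it was 0.04. Summed muscle miRNAs ran from 381 to 4049 CPM in the rich libraries and from 272 to 3576 CPM in the others, so the groups overlapped widely. The library richest in miR-451a and in miR-486-5p, sedentary wild type 1, was poor in muscle miRNA, with 321.9 CPM of miR-1a-1-3p. Sedentary kinase dead 2, with 3496 CPM of miR-1a-1-3p, had the least miR-486-5p of the 6 rich libraries. Trained wild type 6 was high in both, with 2697 CPM of miR-1a-1-3p and 848.3 CPM of miR-486-5p, and had the most miR-486-5p per 100 reads of miR-451a of the 6 (27.6). With log2 miR-1a-1-3p in the fit, the log2 difference was 1.25 for miR-486-5p and 1.28 for miR-486-3p. Each had an adjusted p of 0.00163 in edgeR's quasi-likelihood test. That setting was added after the data were seen, and whether muscle RNA contributed to the miR-486 reads was not tested.

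**Figure D4:**
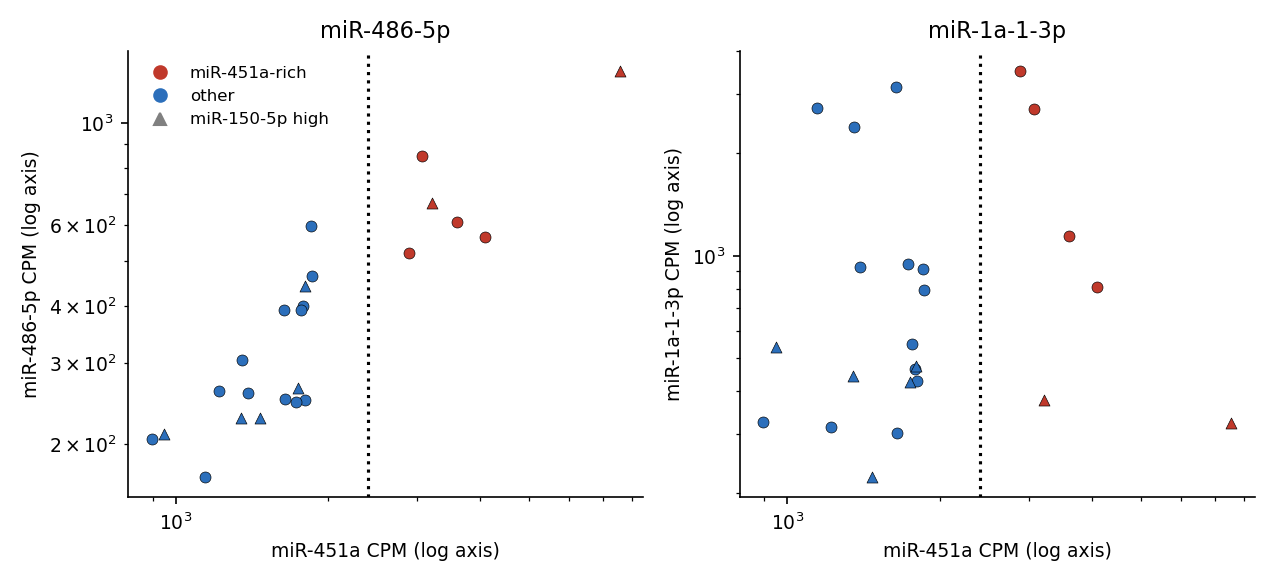
CPM of miR-486-5p (left) and of the striated muscle miRNA miR-1a-1-3p (right) against CPM of miR-451a in the 24 libraries, all on log axes, with the 2400 CPM threshold as a dotted line. miR-486-5p climbs with miR-451a. miR-1a-1-3p runs from 321.9 to 3496 CPM in the rich libraries and from 223.3 to 3133.5 CPM in the others.

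Within each of the 4 study groups the rich libraries lay above the rest in miR-486-5p. The groups are small, with 1 rich library beside 5 others or 2 beside 4. The share of all loci that separate in such splits was not counted, so the order is only a description. In sedentary kinase dead the single rich library had 520.9 CPM of miR-486-5p and the highest other 265.2 CPM. In sedentary wild type the lower of the rich libraries had 563.6 CPM and the highest other 398.8 CPM. In trained kinase dead these values were 608.8 and 464.1 CPM, and in trained wild type 848.3 and 595.8 CPM. The order was the same for miR-486-3p and miR-144-5p in all 4 groups. For miR-144-3p it failed in trained wild type, where the rich library had 349.6 CPM and the highest other 396.2 CPM. The difference between rich and other libraries was itself compared between genotypes and between training states, and no locus outside the cluster passed in either comparison (edgeR's quasi-likelihood test, 705 tested each), with 21 and 22 at an unadjusted p under 0.05. For miR-486-5p the log2 difference was smaller by 0.34 in kinase dead than in wild type (interval -1.26 to 0.57) and by 0.45 in trained than in sedentary libraries (-1.41 to 0.50).

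**Figure D5:**
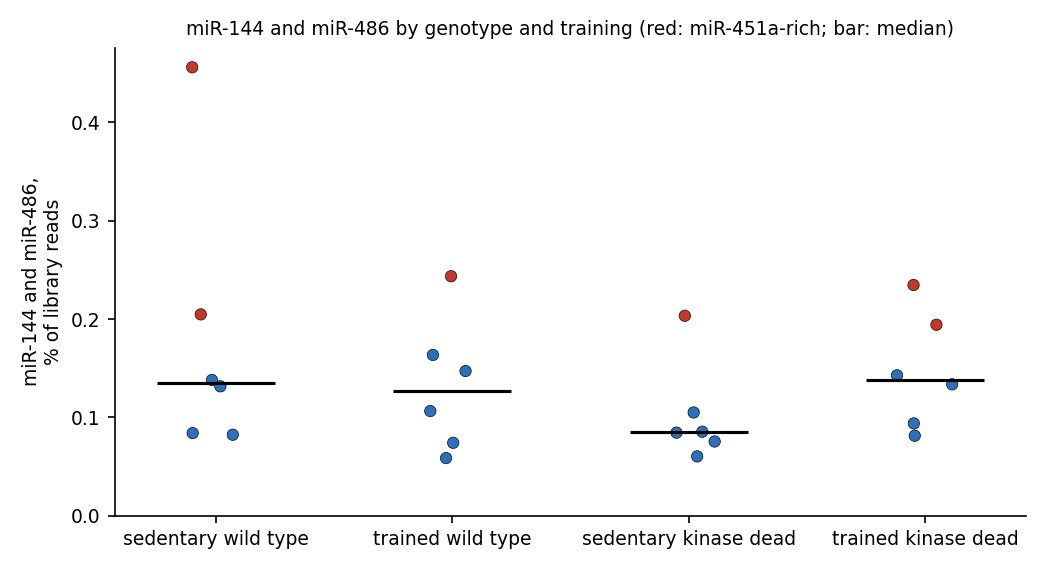
Summed reads of both arms of miR-144 and of miR-486, without miR-451a, as a percent of library reads, for the 6 libraries of each genotype and training group, with the group median as a bar. Rich libraries (red) hold 0.194 to 0.456% and the others (blue) 0.0586 to 0.163%, and every group holds both kinds. miR-144 shares the transcript of miR-451a, on which the libraries were chosen.

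For miR-486-5p the rich and other libraries separated in lymphocyte-rich samples and overlapped in the rest. The lymphocyte-rich split holds only 2 libraries against 5, and the share of all loci that separate there was not counted. Among the 7 libraries at or above 2000 CPM of miR-150-5p the rich ones had 669.5 and 1299 CPM of miR-486-5p and the other 5 at most 442 CPM. Among the 17 below it, the 4 rich libraries had 520.9 to 848.3 CPM and the other 13 up to 595.8 CPM, so they overlapped, as they did for miR-486-3p and miR-144-3p but not for miR-144-5p. Fitted on those 17 libraries alone, no locus outside the cluster passed (0 of 639), with 11 (1.72%) at an unadjusted p under 0.05. There the log2 difference was 0.91 for miR-486-5p and 0.93 for miR-486-3p, each with an adjusted p of 0.117 in edgeR's quasi-likelihood test. Over all alternatives the adjusted p of miR-486-5p ran from 5.71e-07 to 0.117. The difference between these 2 kinds of sample was 0.84 for miR-486-5p (SE 0.47, unadjusted p = 0.0821 and adjusted p = 1.00 in edgeR's quasi-likelihood test) and did not pass. Sedentary wild type 1 set part of the size: without it the log2 difference fell to 0.99 for both arms of miR-486, and they still passed.

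Depth moved with the split, as the totals show, and with log2 total in the fit the difference was 1.26 for miR-486-5p and 1.30 for miR-486-3p.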

How the data were processed

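Per the labels' protocols, RNA from subcutaneous fat was extracted with TRIzol and made into libraries with the NEBNext small RNA kit. The submitters' processing notes list Bowtie2, featureCounts, Trim Galore and CASAVA 1.8.2 with the build mm10, and the sources used here do not give settings for strand or multiple mapping. The deposited values are raw read counts per mature miRNA locus. Loci were named from RefSeq mature sequences (1674 of 2045) or the GENCODE hairpin and arm (371) on GRCm38. CPM is the count divided by the library total, times 1000000.

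Counts were tested with edgeR 4.0.16 (R 4.3.3, TMM factors, filterByExpr), with terms for miR-451a at or above 2400 CPM and miR-150-5p at or above 2000 CPM, and Benjamini-Hochberg adjustment over 684 loci at a threshold of 0.05. miR-451a and miR-144 stayed in the fit and in this adjustment, but their own p-values are not reported. Their small p-values lower the adjusted p of other loci. With miR-451a taken out of the counts and miR-144 kept, miR-486-5p had an adjusted p of 0.00073 in edgeR's quasi-likelihood test. Loci with the same mature sequence, or overlapping by at least 15 bases on opposite strands, share reads and count once in numbers of distinct miRNAs. The members and lists were chosen with earlier results of these data known. Named miRNAs are the red cell list, the 8 smallest p past the threshold in each direction (the 4 smallest where fewer than 4 passed), the 6 most abundant, and the most abundant of each marker list. Alternatives were DESeq2 1.42.0, its size factors, no filter, other covariates and thresholds, and each library left out. Of 276 pairs of libraries none had counts alike within sampling noise (smallest chi-square per degree of freedom 41.5). The fit was tested on simulated data. Replicate numbers pair no samples.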

Additional observations from a re-analysis of the deposited data

Results flagged for a closer look

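In 3 of 22 named miRNAs 1 of the 6 rich libraries stood apart from the rest, by a rule that chance meets in about 1 in 20 groups. miR-144-5p reached 507 CPM in sedentary wild type 1, and the next rich library had 260 CPM. miR-5120 reached 1.74 CPM in that library, with 0.393 CPM in the next. miR-338-3p, a miRNA of nerve and glia, reached 269 CPM in sedentary kinase dead 2, with 130 CPM in the next.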

How the results depend on the processing

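A threshold of 2000 CPM selects the same 6 libraries and so gives the same values. Of the other 12 alternatives 10 made 4 calls outside the cluster, as did the fits with each of the 24 libraries left out in turn (4 to 4 higher, 0 to 0 lower). They numbered 0 in libraries below 2000 CPM of miR-150-5p only, and 2 with 1 locus kept per shared sequence or strand pair, because that setting holds each miR-486 arm once. Leaving out libraries moved miR-486-5p between 0.99 and 1.30 and miR-486-3p between 0.99 and 1.32. At a threshold of 3000 CPM miR-144-3p was 1.06.

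None of the differences that changed sign passed the test, and the cause was not tested. With log2 total as a covariate miR-148a-3p was 0.0409, miR-142a-5p 0.0688 and miR-338-3p 0.241. With miR-1a-1-3p as a covariate miR-148a-3p was 0.0189 and miR-1b-5p -0.0517. miR-1b-5p is read together with miR-1a-3p, so that fit adjusts it for its own level. Its value there says nothing of rich and other libraries. At 3000 CPM miR-99a-5p was 0.0493 and miR-16-5p -0.0545. miR-92a-3p was -0.00351 with DESeq2 size factors, -0.00348 in DESeq2, -0.0302 with the study groups as covariates and -0.00679 in libraries low in miR-150-5p, where miR-338-3p was 0.122. miR-142a-5p was 0.178 without the miR-150-5p term and 0.0191 with continuous miR-451a. Without the filter miR-338-3p was 0.00621 and miR-192-5p 0.00327. With libraries left out, miR-148a-3p ran from -0.13 to 0.00382, miR-99a-5p from -0.20 to 0.0113, miR-92a-3p from -0.0444 to 0.0773, miR-142a-5p from -0.20 to 0.0183, miR-338-3p from -0.43 to 0.0633 and miR-16-5p from -0.0712 to 0.113. No paired analysis was possible because the replicate numbers only name libraries and the split is on a measured value. Depth limits scarce miRNAs: 3 reads stand for 0.127 to 1.87 CPM.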

Other observations

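Among groups not described above, the imprinted Dlk1-Dio3 cluster, whose miRNAs are made from the maternal chromosome, had 62 tested distinct members. Of these 16 were above 0 and 46 below (median log2 difference -0.09), and none passed the test. Of all 567 distinct miRNAs outside the cluster of miR-451a, 45.5% were above 0 (median -0.01). Members of 1 cluster can vary together, so the 46 need not be separate results. The let-7 family had 9 of 22 above 0 (median -0.02), the miR-15/16 family 7 of 12 (median 0.04), the miR-221 and miR-222 pair 2 of 4 (median -0.02) and the cluster of miR-183, miR-96 and miR-182 3 of 6 (median 0.03). No member of these groups passed.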
